A study of Mus musculus with 3 samples.

Results

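The genes described here encode 10 transcription factors that define the identity of the insulin-producing β-cell, namely Pdx1, Mafa, Nkx6-1, Nkx2-2, Neurod1, Pax6, Isl1, Foxa2, Rfx6 and Mnx1. They were chosen by name, and all 10 were found among the 22350 protein-coding genes that GENCODE M1 places on chromosomes 1 to 19 and X of mm9. The measurement was H3K4me1 ChIP-seq, in which chromatin carrying monomethylated lysine 4 of histone 3 is recovered with an antibody and sequenced. The chromatin came from isolated mouse islets that were cultured for 4 days in RPMI with low doses of IFNγ (1.6 ng/ml), Il-1β (0.25 ng/ml) and TNFα (0.16 ng/ml). DNA of 4 ChIP experiments had been pooled into 1 library, so no value below has a replicate error and no difference could be tested across samples. The labels give the mice as CD1, aged 8 to 12 weeks, and the study's methods give them as ICR, aged 8 to 10 weeks. Neither regions of untreated islets nor the RNA-seq samples were analysed here. Every statement is about cytokine treated islets alone and none is about a response to the cytokines.

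Identity factors of the β-cell act as a network: they bind the regulatory regions of insulin and of the genes for glucose sensing and secretion, and they also bind each other's genes. Pdx1, Nkx6-1, Nkx2-2, Mnx1, Isl1 and Pax6 bind DNA through a homeodomain, Neurod1 through a basic helix-loop-helix domain, Mafa through a basic leucine zipper, and Foxa2 and Rfx6 through winged helix domains of the forkhead and RFX kinds. H3K4me1 marks enhancers and the shoulders of promoters that are active or poised. At many active promoters the nucleosomes next to the start site carry trimethylation of the same lysine in place of monomethylation, which leaves a dip in H3K4me1 over the transcriptional start site (TSS). The deposited list gives only where a region of H3K4me1 enrichment starts and ends, on a grid of 200 bp, with no count, height or p-value. A stretch outside every region was therefore not called as enriched, which is not the same as carrying no H3K4me1. Islets hold several endocrine cell types along with vessel and immune cells, and which of them carried a region cannot be told apart.

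An H3K4me1 enriched region was counted for a gene if it overlapped the gene or lay within 50 kb of any of its annotated TSS. By this rule the 10 genes had 84 regions, all distinct, of the 65709 in the list. In these islets each of the 10 genes had 5 to 11 regions, with a median of 8, against a median of 5 over all protein-coding genes. The regions of a gene summed to a median of 27.8 kb, from 11 kb at Nkx6-1 to 50 kb at Neurod1, and the median over all protein-coding genes was 8.4 kb. These sums count the full width of each region, also where it ran past the 50 kb limit. Within the limit Pax6 had the most, with 45 kb, followed by Mafa with 40.95 kb, Neurod1 with 39.1 kb and Pdx1 with 38.6 kb. Most TSS lay outside the regions, as at most protein-coding genes. A region covered at least 1 TSS of 3 of the 10 genes (Foxa2, Pax6 and Rfx6), beside 39.1% of all protein-coding genes, and the most 5′ annotated TSS, called the first TSS below, was covered at Foxa2 alone, beside 31.1% of all protein-coding genes.

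**Figure D1:**
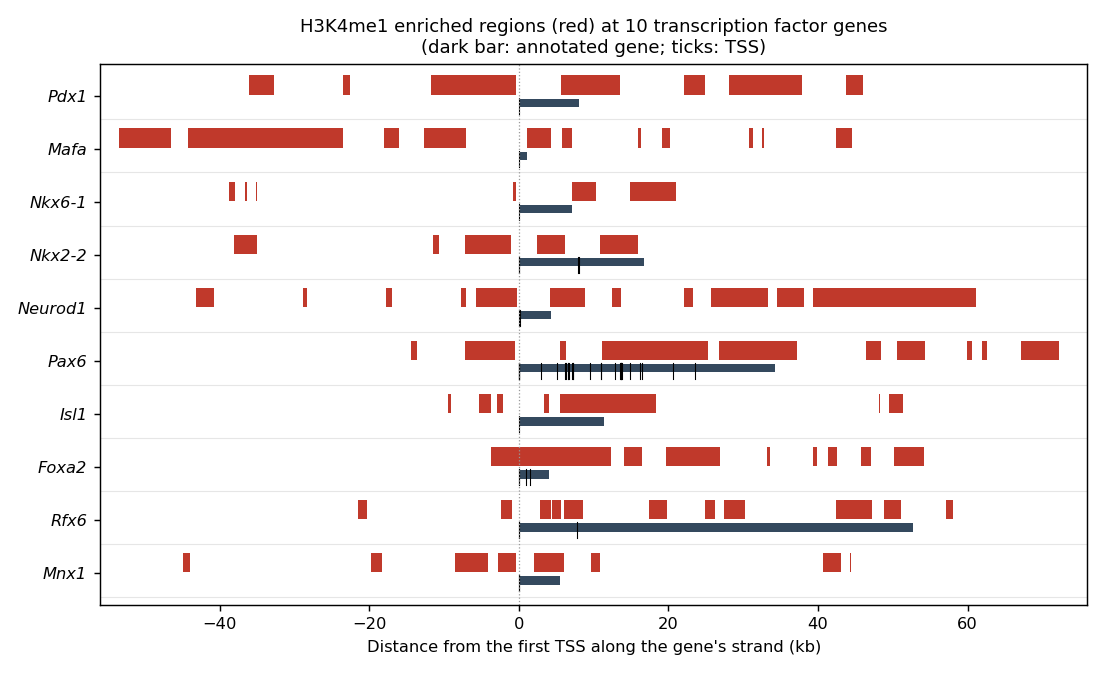
Map of the H3K4me1 enriched regions of cytokine treated islets (red) at each of the 10 genes, drawn to scale along the gene's own strand, with distance from the first TSS in kb on the x axis and 1 gene per row. Dark bars are the annotated genes and ticks their TSS; the dotted line at 0 falls between regions in every row other than that of Foxa2.

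Coverage was read as the share of the gene and the 50 kb on either side of its TSS that lay inside regions. This covered share was 41.0% at Mafa, 39.0% at Neurod1, 38.6% at Pdx1 and 36.4% at Pax6. Foxa2 followed with 30.1%, Rfx6 with 20.5%, Nkx2-2 with 17.6%, Isl1 with 17.1%, Mnx1 with 17.0% and Nkx6-1 with 11%. Over all protein-coding genes the median was 6.86% and the 90th percentile 24.2%, so Mafa, Neurod1, Pdx1, Pax6 and Foxa2 lay above the latter and the other 5 between both values. Nkx6-1, a factor that keeps β-cells from an α-cell fate, was the lowest, at the 64.4 percentile of all protein-coding genes. With 1 library and a count of positions, neighbours in this order such as Nkx2-2, Isl1 and Mnx1 cannot be separated.

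Wide regions were part of this coverage. The 84 regions had a median width of 2100 bp, with quartiles of 800 and 4500 bp, against a median of 1200 bp and quartiles of 600 and 2400 bp for all 65650 regions on the same chromosomes. At least 1 region wider than 10 kb was found at 6 of the 10 genes, beside 10.9% of all protein-coding genes. The widest was 21.8 kb, at Neurod1, followed by 20.8 kb at Mafa, 16 kb at Foxa2, 14.2 and 10.4 kb at Pax6, 12.8 kb at Isl1 and 11.4 kb at Pdx1. Rfx6, Nkx2-2, Nkx6-1 and Mnx1 had no region of this width.

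**Figure D2:**
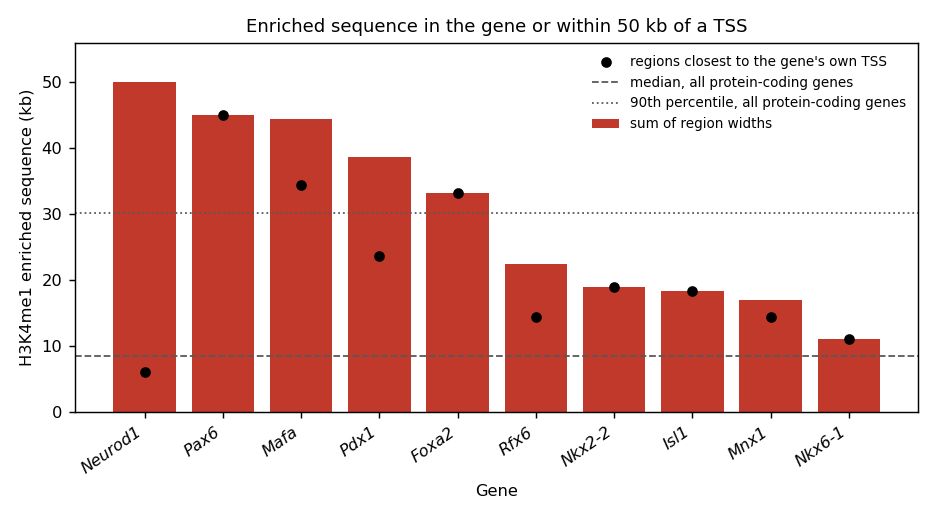
Summed full width in kb of the H3K4me1 enriched regions in each gene or within 50 kb of a TSS (red bars, from Neurod1 at 50 kb to Nkx6-1 at 11 kb), with the part in regions whose closest protein-coding TSS is the gene's own (black points). The dashed and dotted lines are the median (8.4 kb) and the 90th percentile (30.2 kb) of the full sums at all protein-coding genes. They are no background for the points, of which that of Neurod1 falls to 6.0 kb.

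Not all of this sequence was closest to the gene itself. Of the 84 regions, 63 had the closest protein-coding TSS at the gene for which they were counted, and counting only these gave a median of 18.7 kb per gene. No share or median under this rule was computed over all protein-coding genes, so neither value has a background. All regions of Nkx6-1, Nkx2-2, Pax6, Isl1 and Foxa2 met this rule. At Neurod1 only 2 of 11 did, with 6.0 kb of the 50 kb. The neighbour there is Cerkl, whose first TSS on the minus strand is 34 bp upstream of that of Neurod1 and whose annotated gene runs through Neurod1, so the 5 regions upstream of Neurod1 were closer to the Cerkl start by those 34 bp. The 21.8 kb region lay in introns of Cerkl, from 79235801 to 79257600 on chromosome 2, at least 39.3 kb downstream of the Neurod1 start. Of all 84 regions, 23 overlapped an annotated exon (27.4%, beside 27.3% of all regions), 31 lay in introns only (36.9%, beside 40.4%) and 30 lay outside annotated genes (35.7%, beside 32.3%). Of the 84, 20 touched the gene they were counted for, and 20 overlapped another protein-coding gene, such as Zc3h3 beside Mafa and Elp4 beside Pax6. These 2 shares were not computed over all protein-coding genes, so whether they are high or low is not known.

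Bare starts between enriched flanks were the common layout. The first TSS was uncovered at 9 of the 10 genes, and at all 9 a region began within 10 kb on both sides, a layout found at 18.2% of all protein-coding genes (a distance chosen after the values were seen). At the narrower distance of 2 kb, 6 of the 10 genes had no covered TSS and a region on 1 side only, beside 14% of all protein-coding genes. Judged on the first TSS alone, none of the 10 had a region on both sides at that distance, and 9.90% of all protein-coding genes did. The stretch without enrichment over these 9 starts had a median length of 5.4 kb, from 2.4 kb at Mnx1 to 8.2 kb at Mafa. The 4076 protein-coding genes with the same layout had a median of 2.6 kb and an upper quartile of 6.0 kb. Mnx1 lay below that median and the other 8 genes above it. Among genes with a single annotated TSS, the start was covered at 0 of 4 (Pdx1, Mafa, Nkx6-1 and Isl1), beside 22.9% of the 9829 such protein-coding genes.

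Averaged over the 10 genes, the dip and its shoulders were on opposite sides of the genome-wide level. Between the first TSS and 2 kb downstream, regions held 14% of the sequence at the 10 genes and 31.1% at all protein-coding genes. The 14% came from Foxa2, with 100%, and Mafa, with 40%, and the other 8 genes had 0. From 2 to 10 kb downstream the order was turned, with 54.5% at the 10 genes and 14.9% at all. In the 2 kb upstream of the first TSS the values were 55% and 21.8%, and from 10 to 2 kb upstream 44.5% and 8.21%. Enrichment was most frequent 2300 bp upstream and 5900 to 6100 bp downstream of the first TSS, where 8 of the 10 genes lay in a region.

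**Figure D3:**
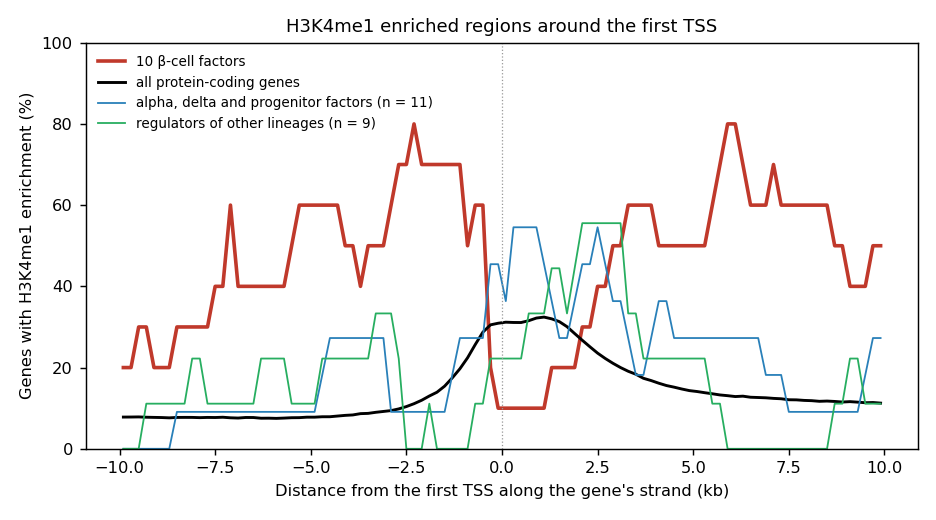
Percentage of genes that lie in an H3K4me1 enriched region (y axis) at each 200 bp step within 10 kb of the first TSS, read along the gene's strand (x axis, kb), for the 10 β-cell factors, all protein-coding genes and both lists of other transcription factors. The curve of the β-cell factors falls to 10% over the start, where that of all protein-coding genes is near 31%, and reaches 80% upstream and downstream of it.

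Pdx1, the homeodomain factor that activates the insulin gene and without which the pancreas does not form, has its gene on the plus strand of chromosome 5, between 148081535 and 148089584. The widest of its regions, 11.4 kb between 148069801 and 148081200, ended 335 bp upstream of the only annotated TSS and lay in an intron of an annotated non-coding gene. The next region began 5666 bp downstream and ran for 7.8 kb over the 3′ UTR and past the end of the gene. The 6.0 kb between them held all of the coding sequence and 70.4% of the gene. Further upstream were regions of 1.0 and 3.4 kb, and downstream 3 more, of 2.8, 9.8 and 2.4 kb, were closest to the TSS of Cdx2, an intestinal homeodomain gene.

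Nkx6-1 and Nkx2-2 are homeodomain genes needed to make and keep β-cells. Nkx6-1 (chromosome 5, 102087158 to 102094245, minus strand) had a region of only 0.4 kb 356 bp upstream of its TSS and a region of 3.2 kb that began 7045 bp downstream, at the very end of the gene. The 7.4 kb between them held all of its coding sequence and 99.4% of the gene. Its other 4 regions were a 6.2 kb region 14.8 kb downstream and 3 of 0.2 to 0.8 kb far upstream, between 102129201 and 102133000. Nkx2-2 (chromosome 2, 147003282 to 147019979, minus strand) had 4 annotated TSS, none of them in a region. A region of 6.2 kb ended 1022 bp upstream of the first TSS, and a region of 3.8 kb from 2379 to 6178 bp downstream separated the first TSS from the pair 7841 and 7982 bp further on. The coding sequence of Nkx2-2 lay outside the 3.4 kb stretch at the first TSS.

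Mnx1 and Isl1, homeodomain factors shared by islet cells and motor neurons, had covered shares of 17.0% and 17.1%. Mnx1 (chromosome 5, 29799578 to 29805059, minus strand) had the shortest stretch without enrichment of the 9. A region of 2.4 kb ended 342 bp upstream of its first TSS, and a region of 4.0 kb began 2059 bp downstream and covered the 3′ part of the gene. Of its coding sequence, 57.2% fell between them. Isl1 (chromosome 13, 117088478 to 117099896, minus strand) was the only one of the 9 genes with an uncovered first TSS that had no region edge within 2 kb of it. Its nearest regions were 0.8 kb wide, 2105 bp upstream and 3296 bp downstream. The 12.8 kb region of Isl1, from 117081601 to 117094400, covered the 3′ part of the gene and reached 6.88 kb beyond its end, and it held most of the 18.4 kb counted for Isl1.

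Pax6, a paired and homeodomain factor of endocrine pancreas and eye, has 29 annotated TSS in a gene on the plus strand of chromosome 2, between 105509053 and 105543317. The first 6 were uncovered, in a stretch of 6.0 kb that began 453 bp upstream of the first TSS and held none of the coding sequence. In all, 14 of the 29 TSS lay in a region. Of these, 12 fell in the 14.2 kb region from 105520201 to 105534400, and the other 2 in a region of 0.8 kb from 105514601 to 105515400. Downstream, 5 regions of 0.6 to 5.0 kb lay wholly in introns of Elp4, a gene that overlaps the end of Pax6, and a 10.4 kb region covered the last part of Pax6 and reached into Elp4.

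Neurod1, a helix-loop-helix activator of the insulin gene, has 2 TSS 175 bp apart (chromosome 2, 79292678 to 79296908, minus strand). A region of 5.4 kb ended 293 bp upstream of the first TSS, the shortest distance among the 9 uncovered starts, and a region of 4.8 kb began 4108 bp downstream. Between them, 4.4 kb without enrichment held all of the coding sequence and 97.1% of the gene. Mafa, the leucine zipper factor of mature β-cells, has an annotated gene of 1.08 kb (chromosome 15, 75577273 to 75578352, minus strand). All distances and CpG counts at the Mafa start rest on 1 annotated transcript, and whether its 5′ end is complete was not checked. The annotated gene is short. It lay whole inside the 8.2 kb stretch and, unlike at the other 8 genes, that stretch was longer upstream (7049 bp) than downstream (1152 bp). Upstream of Mafa, 4 regions summed to 35.4 kb, all of them in Zc3h3, including the 20.8 kb region from 75601801 to 75622600. Downstream, 7 regions summed to 9.0 kb.

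Foxa2 was the only one of the 10 with a covered first TSS. Foxa2, a forkhead factor that opens chromatin in endoderm and acts upstream of Pdx1, is encoded on the minus strand of chromosome 2, between 147868613 and 147872705. The 16 kb between 147860401 and 147876400 formed 1 region that covered all 4 TSS and the whole gene. The other 7 regions of Foxa2 were downstream and summed to 17.2 kb, in introns of the annotated gene 9030622O22Rik, and no other region lay within 50 kb upstream of the first TSS. Rfx6, which directs the formation of endocrine cells, is encoded on the plus strand of chromosome 10, between 51397562 and 51450235. Of its 3 TSS, the one 7762 bp into the gene was covered by a region of 2.6 kb and the first pair, 54 bp apart, was not. Rfx6 had 8 of its 11 regions within the gene, the most of the 10, and none of the 11 was wider than 4.8 kb.

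CpG, the dinucleotide that clusters at many promoters, was counted in the stretches without enrichment and in the regions beside them. The stretches held a median of 3.28 CpG per 100 bp, below the 4.50 of all protein-coding genes with this layout, and above the 1.5 in the region on the upstream side and the 1.28 in that on the downstream side (n = 9 genes). The stretch exceeded both regions beside it at 8 of 9 genes, and at Pax6 only the upstream one, since the 0.8 kb region downstream held 5.38 CpG per 100 bp. Over all protein-coding genes with this layout the stretch exceeded both at 73.6%. The downstream arm was the longer at 8 of 9 genes, beside 57.2% of all genes with this layout. At least 90% of the gene lay in the stretch at 3 of 9 (Mafa, Nkx6-1 and Neurod1), beside 8.81%, and all of the coding sequence at 4 of 9, the same genes and Pdx1, beside 10.1%. Gene length bears on these last values: Pdx1, Mafa, Nkx6-1 and Neurod1 are 1.08 to 8.05 kb long, and its part was not tested.

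**Figure D4:**
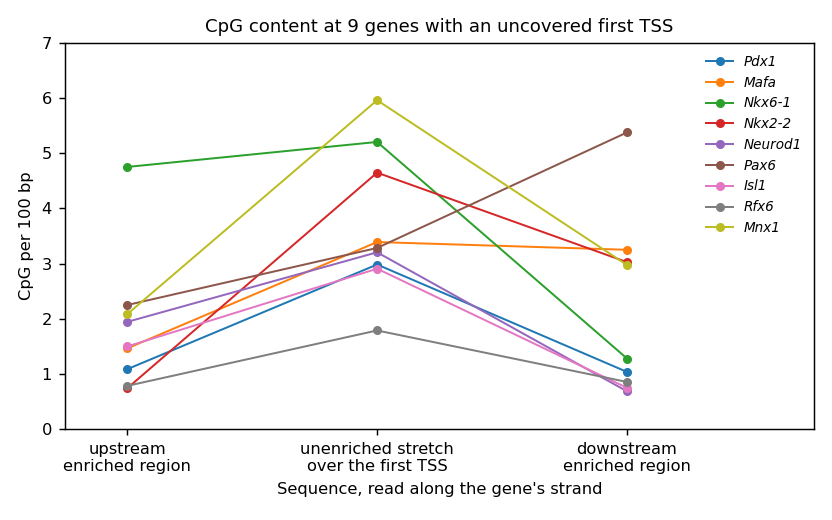
CpG per 100 bp (y axis) in the upstream enriched region, in the stretch without enrichment over the first TSS and in the downstream enriched region (x axis) at the 9 genes with an uncovered first TSS, 1 line per gene. The middle point is the highest at 8 genes, and Pax6 is the exception with 5.38 in its downstream region.

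In the 500 bp on each side of the first TSS, CpG content ran from 3.90 per 100 bp at Pdx1 to 12.3 at Mafa, with a median of 5.69 over the 10 genes and 4.10 over all protein-coding genes. Protein-coding genes with an uncovered first TSS and edges within 10 kb on both sides had a median of 6.89, above that of the 10 genes, and those with a covered first TSS had 5.69. The covered start of Foxa2, at 4.10, and the bare start of Pdx1 lay near the median of all protein-coding genes. The 100 bases before the first TSS, read 5′ to 3′ on the gene's strand from mm9 with each CpG in capitals, are printed for 6 genes. Mafa and Isl1 had the most CpG in these 100 bases, Nkx6-1 lay between, Pdx1 and Neurod1 had as few as Foxa2, and the sequence of Foxa2 is the one inside a region.
Mafa (chr15:75578353-75578452, minus strand): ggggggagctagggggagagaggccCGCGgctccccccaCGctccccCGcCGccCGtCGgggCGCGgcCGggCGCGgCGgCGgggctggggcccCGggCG
Isl1 (chr13:117099897-117099996, minus strand): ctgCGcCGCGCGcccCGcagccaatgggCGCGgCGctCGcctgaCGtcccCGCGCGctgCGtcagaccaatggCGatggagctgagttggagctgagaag
Nkx6-1 (chr5:102094246-102094345, minus strand): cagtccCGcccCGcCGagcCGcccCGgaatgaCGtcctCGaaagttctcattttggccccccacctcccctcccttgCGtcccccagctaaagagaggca
Pdx1 (chr5:148081435-148081534, plus strand): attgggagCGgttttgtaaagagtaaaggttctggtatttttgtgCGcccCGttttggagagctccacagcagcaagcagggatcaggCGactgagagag
Neurod1 (chr2:79296909-79297008, minus strand): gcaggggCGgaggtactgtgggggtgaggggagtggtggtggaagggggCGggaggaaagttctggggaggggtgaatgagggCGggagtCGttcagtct
Foxa2 (chr2:147872706-147872805, minus strand): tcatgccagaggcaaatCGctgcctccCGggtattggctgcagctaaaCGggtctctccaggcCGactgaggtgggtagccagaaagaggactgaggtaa
These hold 16 CpG at Mafa, 15 at Isl1 and 8 at Nkx6-1, and 4 each at Pdx1, Neurod1 and Foxa2.

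Since the factors bind each other's genes, their short recognition words were searched on both strands in the 1000 bp around the midpoint of each region. The shares are descriptions, since regions of the same gene are not independent. TGTTTAC, a forkhead word, was found in 13 of 84 regions (15.5%, 95% exact binomial interval 8.51% to 25%, counting error only) and in 17.7% of all 65650 regions. TAATTA, a homeodomain word, was found in 31.0% of the 84 and 27.4% of all, and CAGATG, an E-box read by Neurod1 and its partners, in 48.8% and 58.1%. In 500 bp the E-box was in 25% (16.2% to 35.6%, counting error only) and 35.9%. The Maf word TGCTGAC was in 13.1% and 16.2%, the Rfx word GTTGCCA in 10.7% and 12.0%, and the Nkx2 word CACTTGA in 11.9% and 13.3%. Words of the factors that IFNγ, Il-1β and TNFα act through were searched in the same way. The NF-κB word GGANTTTCC was in 4.76% and 3.98%, the Stat word TTCCNGGAA in 2.38% and 3.70%, and the Irf word GAAANNGAA in 39.3% (28.8% to 50.5%) and 30.6%. Words of 6 to 9 letters overlap (the reverse complement of GAAANNGAA can share bases with GGANTTTCC) and occur by base composition alone, so a match is a description and not a binding site.

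In the 300 bp from 250 bp before the first TSS, matches were few. TGTTTAC was found at Nkx6-1 alone (3.11% of all promoters), CAGATG at Neurod1 and Rfx6 (15.1%), TGCTGAC at Nkx2-2 (4.30%) and CACTTGA at Mnx1 (3.13%). The other 5 words were found at none of the 10, and at 4.83% (TAATTA), 4.26% (GTTGCCA), 1.25% (GGANTTTCC), 1.15% (TTCCNGGAA) and 8.93% (GAAANNGAA) of all promoters. Within the whole regions, TGTTTAC matches ran from 0 per kb at Nkx6-1 to 0.357 per kb at Rfx6, with 0.18 per kb at Neurod1, and the rate over all regions was not computed. A match was passed over if its printed bases touched an annotated UTR of a protein-coding gene. The closest remaining match to the first TSS is printed for Pdx1, Pax6, Foxa2 and Mnx1 as examples, with the word in capitals. The matches so chosen for Mafa, Nkx2-2, Neurod1, Isl1 and Rfx6 lay in regions next to the first TSS too and are not printed.
Pdx1 (chr5:148073895-148073921, read on the plus strand): gagaggcttcTGTTTACctttttgtta
Pax6 (chr2:105506145-105506171, read on the minus strand): ggtgaaaataTGTTTACaaaaattgat
Foxa2 (chr2:147868255-147868281, read on the plus strand): aatgttgttgTGTTTACtgctgtagtc
Mnx1 (chr5:29806112-29806138, read on the minus strand): cccggaagcgTGTTTACagtaaatatt
They lie 7.63 kb upstream of the first TSS at Pdx1, 2.90 kb upstream at Pax6, 4.44 kb downstream at Foxa2, just past the end of that gene, and 1.07 kb upstream at Mnx1.

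Likeness among the 10 genes was read from the 100 steps of 200 bp within 10 kb of the first TSS, as the share of covered steps that 2 genes have in common (Jaccard index). Over the 45 pairs the index had a median of 0.29. Nkx2-2 and Mnx1 were the most alike, at 0.656, with regions ending 1022 and 342 bp before the start and beginning 2379 and 2059 bp after it. Nkx6-1 and Nkx2-2 had no covered step in common, at 0. All pairs come from the same library, and the index is a description.

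Other lists of genes were set beside the 10 as counts and medians, with no test. Of 11 transcription factors of α-cells, δ-cells and progenitors (Irx1, Irx2, Pou3f4, Hhex, Neurog3, Pax4, Ptf1a, Sox9, Gata4, Myt1 and Insm1), 5 had a covered TSS (Irx2, Neurog3, Sox9, Gata4 and Myt1), and 2 had a region over 10 kb. Irx1, Pou3f4, Hhex and Insm1 had a region edge within 2 kb on 1 side, and Pax4 and Ptf1a had none. The first TSS was uncovered at 7 of the 11, and at 1 of these a region began within 10 kb on both sides, with a stretch of 3.6 kb. The summed regions of these 11 genes had a median of 7.0 kb, from 1.2 kb at Pou3f4 to 31.0 kb at Myt1, where the β-cell factors had 27.8 kb. Myt1 and Insm1, with 28.0 kb, lay above the latter value and all other genes of this list below it. Between the first TSS and 2 kb downstream, regions held 42.7% of the sequence at these 11 genes, where they held 14% at the β-cell factors. Of 9 regulators of other lineages (Myod1, Myf5, Nkx2-5, Tbx5, Pax3, Pax7, Sox10, Olig2 and Nr5a1), 3 had a covered TSS (Pax3, Olig2 and Nr5a1) and 0 a region over 10 kb. Myod1, Nkx2-5 and Tbx5 had an edge within 2 kb on 1 side, and Myf5, Pax7 and Sox10 had none. At 7 of the 9 the first TSS was uncovered, and at 3 of these a region began within 10 kb on both sides, with a median stretch of 4.6 kb. Between the first TSS and 2 kb downstream, 33.3% of the sequence at these 9 genes was covered. The summed regions of the 9 had a median of 8.0 kb, from 0 kb at Myf5 to 12.2 kb at Nr5a1. Nkx6-1, the lowest of the β-cell factors, fell within their range. Of 11 genes that the β-cell factors control (Ins1, Ins2, Slc2a2, Iapp, Slc30a8, Abcc8, Kcnj11, Glp1r, Pcsk1, Ucn3 and G6pc2), 7 had a covered TSS and 6 a region over 10 kb. Ins1, Abcc8 and Pcsk1 had an edge within 2 kb on 1 side, and Iapp had none. The first TSS was uncovered at 6 of the 11, and at 5 of these a region began within 10 kb on both sides, with a median stretch of 8.6 kb where the β-cell factors had 5.4 kb. Their median was 27.6 kb, from 5.0 kb at Ins2 to 82.6 kb at Abcc8, which shares its regions with its neighbour Kcnj11. Between the first TSS and 2 kb downstream, 43.6% of the sequence at these 11 genes was covered. From 2 to 10 kb downstream they had 55.2%, close to the 54.5% of the β-cell factors, and upstream they had 20.2% from 10 to 2 kb and 40% in the last 2 kb.

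The list cannot check the labelled tissue closely, since the mark is not a measure of expression. Of 6 islet genes (Ins1, Ins2, Gcg, Sst, Iapp and Chga), Ins2 alone had a covered TSS, and their regions summed to between 2.2 and 30.0 kb. For 4 acinar genes (Cpa1, Cela1, Ctrb1 and Pnlip) the sums ran from 0.4 to 43.2 kb with 0 covered TSS, for Pecam1, Kdr and Cdh5 of endothelium from 0 (Cdh5) to 43.2 kb with 2, for Ptprc, Cd68 and Cd3e of leukocytes from 3.0 to 23.2 kb with 1, and for Krt19 and Sox9 of duct cells from 5.4 to 22.6 kb with 2. Alb, Myh6 and Neurod6, of liver, heart and brain, had 2.6 to 6.6 kb and 0 covered TSS. The part of the other cell types in the regions at the 10 genes was not tested.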

How the data were processed

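The authors mapped the reads of 1 H3K4me1 library of cytokine treated islets to mm9 with bowtie2 (Bowtie2 2.2.1 per the submitters' processing notes), identified enriched regions with ChromHMM, and deposited each region's chromosome, start and end. The version and settings of ChromHMM, and whether the list precedes the study's FPKM filter, are not given in the sources used here. The list holds no count, so depth is unknown. It gives 65709 regions, of which 59 on other sequences were left out. The 2 RNA-seq samples were not analysed here. Each start was raised by 1 to count positions from 1, and regions were compared with the genome of the same build and GENCODE M1.

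A region belonged to a gene if it overlapped it or lay within 50 kb of any TSS. All protein-coding genes were measured in the same way as background. CpG and motifs were read from the reference genome. All planted classes, region counts, covered lengths (400 of 400 each) and motifs (200 of 200) were recovered from simulated data. The members and the gene lists were chosen with earlier results of these data known, and no test was run over them. Some genes of these lists are not reported here and entered no list value. All members are named, list genes by TSS class and range, and the most and least alike pair. The CpG and coding sequence measures of the stretches, the edge distance of 10 kb and the covered length in regions closest to their own gene were added after values had been seen. Alternatives changed the minimum width, merging, TSS set, window, overlap and edge distance. The work used Python 3.11.15, numpy 2.4.6, scipy 1.17.1 and matplotlib 3.10.9.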

Additional observations from a re-analysis of the deposited data

How the results depend on the processing

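Of 69 values under an alternative setting, over 19 results, 53 stayed within a factor of 1.5 of the reported value (or, for a share with a motif, within its 95% interval), and 16 moved. Values moved where the TSS set, the window, the edge distance or the length searched for words was changed. The cause of each move was not tested. With the first TSS only, 1 gene in place of 3 had a covered TSS, which was Foxa2, beside 31.1% of all protein-coding genes. Regions bordered uncovered starts on both sides at 4 of the 7 genes without any covered TSS with edges within 5 kb (10.5% of all protein-coding genes) and at 7 within 10 kb (14%), the latter chosen after the data were seen. Within 20 kb of a TSS there were 47 regions in all, with medians of 5 regions and 16.2 kb per gene (2 regions and 4.2 kb over all protein-coding genes). Within 100 kb there were 132 regions, with medians of 15 and 43.1 kb (9 and 16.6 kb over all). The closest TSS of any annotated gene, including non-coding ones, was the gene's own for 37 regions in place of 63. This share was not computed for the regions of all protein-coding genes. In 500 bp around the midpoint, the words were found in 7.14% (forkhead), 16.7% (homeodomain), 25% (E-box), 3.57% (Nkx2), 0% (Stat) and 23.8% (Irf) of the 84 regions, and in 9.84%, 15.4%, 35.9%, 6.93%, 1.95% and 16.7% of all regions. The Maf word turned from below the share of all regions (13.1% against 16.2%) to above it (10.7% against 8.75%), and the cause was not tested. With regions of at least 1000 bp, Nkx6-1 and Pax6 no longer had edges within 10 kb on both sides, which left 7 genes with a median stretch of 4.4 kb (10.6% of all protein-coding genes, with 3.2 kb). The median covered share was 21.0% to 33.5% under the alternatives run for it. A stricter score and the leaving out of a replicate were not run, since the list has no score and the islets gave 1 library. No paired analysis was possible because the data hold a single ChIP library.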
